A study of Mus musculus with 18 samples.

Results

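Tubulin isotypes are the products of separate genes for alpha and beta tubulin, the 2 subunits that pair into the building block of microtubules. The 10 genes described here are the alpha tubulins Tuba1a, Tuba1b, Tuba1c and Tuba4a and the beta tubulins Tubb2a, Tubb2b, Tubb3, Tubb4a, Tubb5 and Tubb6. They were chosen by gene symbol from the 17198 genes of the deposited table, and all 10 were measured. RNA came from mouse sensory neurons of the dorsal root ganglia (DRG), which lie beside the spinal cord, after 12, 24 or 48 h in culture. Cultures were wild type (WT) or heterozygous for the Dynlrb1 tm1a allele (HET, Dynlrb1 tm1a/+), a targeted insertion in a light chain gene of cytoplasmic dynein, the motor that moves along microtubules toward the cell body. The 18 samples form 6 groups, 1 for each genotype at each time, with 3 biological repeats per group that carry the numbers 1, 2 and 3 at 48 h and 1, 2 and 5 at the earlier times. The sources used here do not say whether a repeat is an animal, a litter or a pool, so p-values measure the spread between these samples.

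Alpha and beta tubulin fold in the cytosolic chaperonin, pair with the help of tubulin cofactors and polymerise into the microtubules that fill an axon. Their isotypes are nearly alike along the body of the protein and differ most in a short tail at the C-terminal end, which is rich in glutamate and projects from the microtubule surface. Enzymes add and remove glutamate residues on the tails and remove and restore a tyrosine at the end of alpha tubulin. In sensory neurons, isotypes such as Tuba1a and Tubb3 are known to be raised during axon growth and regeneration.

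Coding sequence of the tails is shown for Tuba4a and 5 of the beta genes because the tail is the stretch in which isotypes are known to differ and on which the modification enzymes followed below act. Sequences are the last 60 coding bases (20 codons, stop codon left out) of the principal transcript in GENCODE M21 on build GRCm38, given 5′ to 3′ on the coding strand. Each stretch lies in the last of 4 coding exons. For Tuba4a, at chr1:75215625-75215684 (minus strand), capitals mark the last codon.
Tuba4a: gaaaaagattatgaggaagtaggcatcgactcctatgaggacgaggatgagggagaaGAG

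Tuba4a ended in the glutamate codon GAG and not in a tyrosine codon, and 8 of its last 20 codons encoded glutamate. Over the whole coding sequence Tuba1a was 98.3% identical to Tuba1b and 97.1% identical to Tuba1c, and Tuba1b and Tuba1c were 97.9% identical. Tuba4a was 84.8% to 85.2% identical to the other alpha members.

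For beta tubulin, capitals mark every glutamate codon, GAA or GAG, in frame. The positions are chr13:34074471-34074530 (minus strand) for Tubb2a, chr13:34127474-34127533 (minus strand) for Tubb2b, chr8:123421620-123421679 (plus strand) for Tubb3, chr17:57080693-57080752 (minus strand) for Tubb4a and chr17:35834985-35835044 (minus strand) for Tubb5.
Tubb2a: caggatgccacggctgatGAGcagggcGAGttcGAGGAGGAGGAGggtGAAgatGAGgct
Tubb2b: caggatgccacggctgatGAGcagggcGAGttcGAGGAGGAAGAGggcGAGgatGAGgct
Tubb3: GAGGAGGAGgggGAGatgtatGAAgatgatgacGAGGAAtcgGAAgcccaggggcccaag
Tubb4a: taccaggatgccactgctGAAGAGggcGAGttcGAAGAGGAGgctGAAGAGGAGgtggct
Tubb5: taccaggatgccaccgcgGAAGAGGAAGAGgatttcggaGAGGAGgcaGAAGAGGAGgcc

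The 6 beta tails held 8 or 9 glutamate codons in 20. Tubb3 was the member whose tail ended in aag, a lysine codon, among those shown. Over the coding sequence Tubb2a and Tubb2b were 96.5% identical, and the other pairs of beta members ranged from 80.2% (Tubb5 and Tubb6) to 85.9% (Tubb3 and Tubb6). When each principal transcript was divided into overlapping windows of 50 bases, 72.9% of the windows of Tuba1a, 73.8% of those of Tuba1b and 61.0% of those of Tuba1c also occurred in transcripts of another gene. The shares were 49.6% for Tubb2a and 39.3% for Tubb2b, with 712 windows held in common by these 2 genes. Tubb3 and Tubb6 shared no window with another gene, and Tuba4a, Tubb4a and Tubb5 shared at most 1.1%. How the authors assigned reads that fit more than one gene is not given in the sources used here, so the split among Tuba1a, Tuba1b and Tuba1c, and between Tubb2a and Tubb2b, is uncertain.

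The values are the authors' normalized counts, and FPKM (fragments scaled to transcript length and library total) where genes are compared with each other. Dynlrb1 was lower in all 9 HET cultures than in the WT cultures of the same time, with group means of 3204 to 3599 normalized counts in HET and 5786 to 6195 in WT (averaged log2 fold change -0.83, adjusted p = 2.85e-05). All 12 neuronal markers were measured, and their summed FPKM ran from 5889 to 8509 over the 18 cultures, against 466 to 683 for 7 Schwann cell markers, 207 to 637 for 4 satellite glia markers, 39.9 to 155 for 6 fibroblast markers and 2.27 to 25.3 for 6 genes of dividing cells. It ran from 12.8 to 81.5 for 5 measured macrophage markers, 24.1 to 69.6 for 5 endothelial markers and 3.68 to 226 for 4 measured blood cell markers. The normalized counts hold no 0 for any gene in any culture, so the lack of a 0 among the markers does not show which cell types were present. These are bulk samples, in which fewer cells of a type and less RNA per cell cannot be told apart. HET replicate 3 at 48 h stood apart: its mean correlation across genes was 0.986 with the HET cultures at 12 h and 0.981 with its own group, while the other 5 cultures at 48 h had 0.949 to 0.977 with 12 h and 0.984 to 0.988 with their own group. The members' comparisons at 48 h that include this culture are given below also without it where that ends a call, turns a direction or moves a named value by more than 1.5 times.

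Tubb3, the beta isotype used as a marker of neurons, and Tuba1a, the main alpha isotype of growing neurons, were the most abundant members per length. Mean FPKM over 18 samples was 1132 for Tubb3 (789 to 1533) and 1025 for Tuba1a (544 to 1745), which ranked 9 and 12 among the 17198 genes. Tubb5, an isotype found in most tissues, had 531 FPKM (417 to 665). Tubb2a and Tubb2b, a pair of neighbouring genes active in brain, had 276 FPKM (156 to 398) and 169 FPKM (122 to 221). The other members had 74.5 FPKM (Tuba1b), 58.1 (Tubb4a), 48.7 (Tubb6), 36.3 (Tuba4a) and 20.5 (Tuba1c). In this order, the ranges of Tubb3 and Tuba1a overlapped, as did those of Tubb2a and Tubb2b and those of each neighbouring pair from Tuba1b down to Tuba1c. Those of Tuba1a and Tubb5 also overlapped, from 544 to 665, whereas Tubb5 lay above Tubb2a, and Tubb2b above Tuba1b, in all 18 samples.

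**Figure D1:**
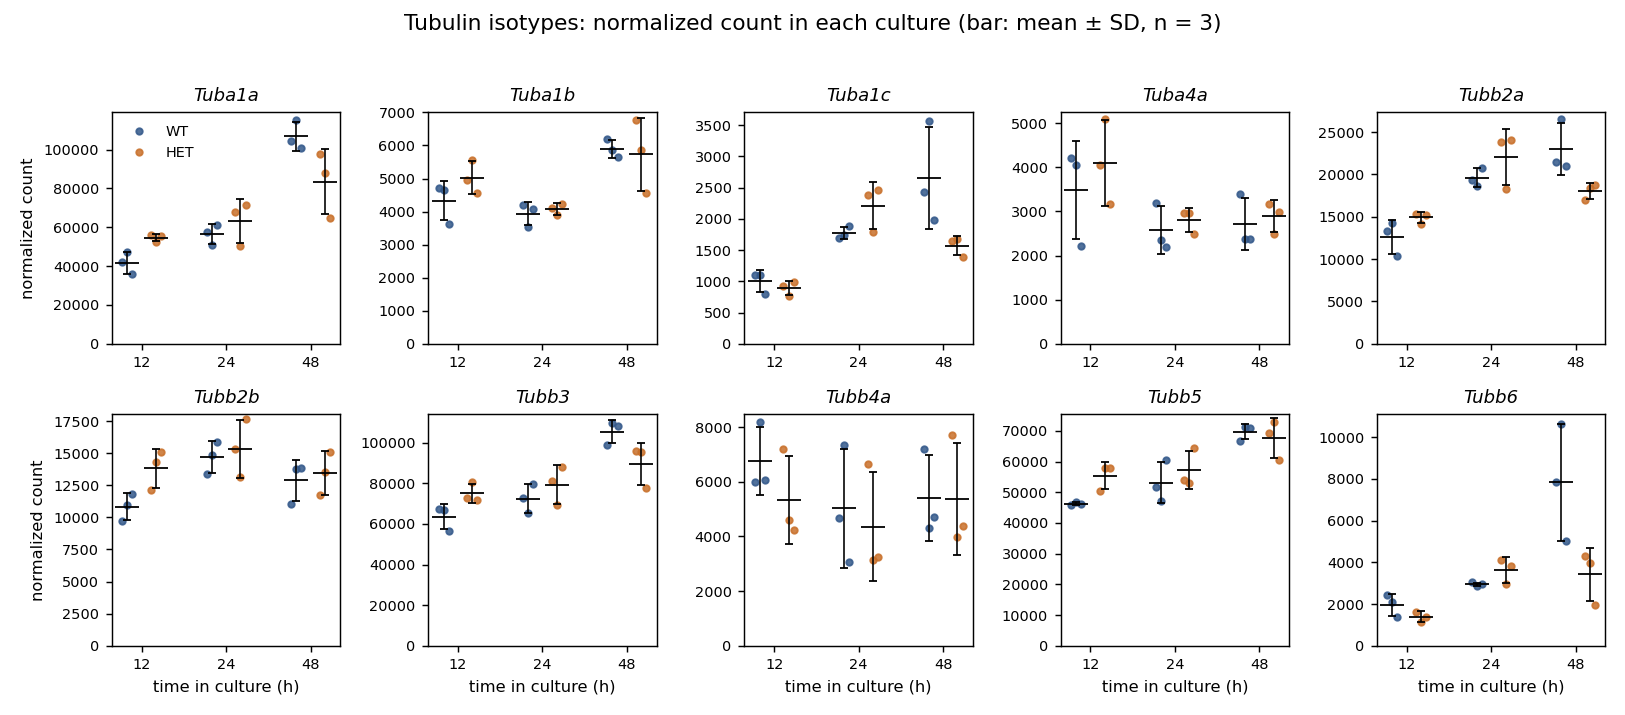
Normalized count of each of the 10 tubulin isotypes (vertical axes, starting at 0) against time in culture (horizontal axes, h). Each point is 1 culture, blue for WT and orange for HET, and the black bars show the mean ± SD of 3 cultures. WT cultures at 48 h lie above WT cultures at 12 h for 7 genes (34.6% of all genes), and the 3 WT cultures of Tubb6 at 48 h, from 5016 to 10615, lie above the 3 HET cultures, from 1974 to 4312.

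Between 12 and 48 h in WT cultures, 7 of the 10 isotypes rose and 0 fell in the fit without a replicate block. The largest rise among the alpha genes was that of Tuba1c and Tuba1a, and among the beta genes that of Tubb6. Tests used limma on log2(normalized count + 1) over all genes, with Benjamini-Hochberg adjustment and a threshold of 0.05 on the adjusted p. At that threshold, 30.0% of all genes were higher and 17.1% lower in this comparison. The median log2 fold change was 0.66 over the 10 members and 0.11 over all genes. With the other deposited scaling (the plain adjusted columns) the median of all genes was 0.01, and no member changed its direction or its side of the threshold.

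Tuba1a had 41926, 47304 and 35898 normalized counts in the 3 WT cultures at 12 h, 57726, 50704 and 61031 at 24 h, and 104461, 115267 and 100604 at 48 h. The 3 cultures at 48 h lay above all earlier ones. The log2 fold change from 12 to 48 h was 1.36 (SE 0.15, adjusted p = 2.69e-05), a 2.57-fold rise. Most of it fell between 24 and 48 h, where the log2 fold change was 0.92 (adjusted p = 0.00343).

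Tuba1c, a widely expressed isotype, had 1106, 1097 and 796 normalized counts in WT at 12 h, 1697, 1743 and 1881 at 24 h, and 2428, 3565 and 1984 at 48 h. The groups at the 3 times did not overlap. From 12 to 48 h its log2 fold change was 1.38 (SE 0.19, adjusted p = 5.20e-05). Tuba1b, also widely expressed, rose less, from a mean of 4330 ± 600 (SD, n = 3) to 5895 ± 271 normalized counts (log2 fold change 0.45, SE 0.13, adjusted p = 0.00867). Without WT replicate 5 of 12 h this rise was 0.33 with an adjusted p of 0.0540.

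Tuba4a, the alpha isotype whose gene encodes no terminal tyrosine, did not rise. It had 4213, 4049 and 2211 normalized counts in WT at 12 h and 3404, 2371 and 2363 at 48 h, and the 2 groups overlapped. Its log2 fold change was -0.33 (SE 0.23, adjusted p = 0.252), and without WT replicate 5 of 12 h it was -0.63 with an adjusted p of 0.0216. With the replicate number as a block over all 18 cultures Tuba4a fell, by 0.47 on the log2 scale (adjusted p = 0.0351). No culture at 48 h carries the replicate number 5, so this block is partly tied to time. The blocked value and the value without WT replicate 5 of 12 h are therefore not separate results.

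Among the beta isotypes, Tubb3 had 67444, 66894 and 56458 normalized counts in WT at 12 h and 98914, 109649 and 108170 at 48 h, with a mean of 72485 ± 7130 at 24 h. All 3 cultures at 48 h lay above the others. The log2 fold change from 12 to 48 h was 0.73 (SE 0.12, adjusted p = 1.32e-04), of which 0.55 fell between 24 and 48 h. Tubb5 rose by 0.59 on the log2 scale (SE 0.10, adjusted p = 3.22e-04), from a mean of 46313 ± 535 to 69702 ± 2460 normalized counts.

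Tubb2a rose early. It had 13357, 14211 and 10375 normalized counts in WT at 12 h, 19391, 18684 and 20805 at 24 h and 21493, 26526 and 21022 at 48 h. The values at 24 h lay above all values at 12 h. From 12 to 48 h the log2 fold change was 0.87 (SE 0.13, adjusted p = 7.72e-05). Its neighbour Tubb2b had a mean of 10836 ± 1060 at 12 h, 14717 ± 1250 at 24 h and 12885 ± 1580 at 48 h, and its change from 12 to 48 h was 0.25 (adjusted p = 0.128, and 0.0434 with the replicate block).

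Tubb6, a beta isotype found in many tissues, had 2411, 2079 and 1391 normalized counts in WT at 12 h, 3034, 2857 and 2942 at 24 h, and 7863, 10615 and 5016 at 48 h. The highest culture at 48 h had more than the other 2, and the lowest still lay above all earlier ones. The log2 fold change from 12 to 48 h was 1.97 (SE 0.29, adjusted p = 7.96e-05), a 3.91-fold rise. Tubb4a, a beta isotype of mature brain, had the largest SE of the 10 members in the fit over the 6 groups. It had 6002, 8188 and 6083 normalized counts at 12 h and 7195, 4308 and 4723 at 48 h. Its change was -0.34 (SE 0.34, adjusted p = 0.426).

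Over the first interval in WT, from 12 to 24 h, 2 of the 10 isotypes rose, Tuba1c (log2 fold change 0.84, adjusted p = 0.0253) and Tubb2a (0.65, adjusted p = 0.0212), and 0 fell in limma, where 2.96% of all genes were higher and 0.657% lower. At an unadjusted p under 0.05 there were 5, all higher, against 21.4% of all genes in either direction. The count was 0 in 5 of the 6 fits that left out 1 culture: WT replicates 2 and 5 of 12 h and WT replicates 1, 2 and 5 of 24 h. The share of all genes called in those fits is not given. Over the second interval, from 24 to 48 h, 6 rose and 0 fell, against 17.4% of all genes higher and 10.3% lower. They were Tuba1a, Tuba1b (0.59), Tuba1c (0.54), Tubb3, Tubb5 (0.40) and Tubb6 (1.35), with adjusted p from 0.00343 to 0.0396. Tubb2a changed by 0.22 in this interval (adjusted p = 0.191).

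In HET cultures, 3 of the 10 isotypes rose from 12 to 48 h and 0 fell, where 10.6% of all genes were higher and 3.62% lower in limma. Those 3 were Tuba1a, Tuba1c and Tubb6. The median log2 fold change was 0.26 over the members and 0.10 over all genes. Tuba1a had 55880, 52538 and 55319 normalized counts in HET at 12 h and 97794, 87710 and 64933 at 48 h. The lowest of the 3 values at 48 h was that of replicate 3, the culture that stood apart. The log2 fold change of Tuba1a was 0.59 (SE 0.15, adjusted p = 0.0214), and without that culture it was 0.76.

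Tuba1c in HET had 930, 764 and 987 normalized counts at 12 h, 2387, 1784 and 2465 at 24 h, and 1648, 1671 and 1392 at 48 h. Its values were highest at 24 h, and those of 48 h lay below those of 24 h without overlap. The change from 12 to 48 h was 0.82 (SE 0.19, adjusted p = 0.0159), and 0.90 without replicate 3 of 48 h. Tubb6 in HET had 1638, 1120 and 1391 normalized counts at 12 h, 4120, 2944 and 3816 at 24 h, and 4312, 3965 and 1974 at 48 h. Replicate 3 at 48 h again was the lowest of its group. The change of Tubb6 was 1.24 (SE 0.29, adjusted p = 0.0163), and 1.60 without that culture.

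The other members in HET had smaller differences from 12 to 48 h that did not pass: Tubb5 0.28 (adjusted p = 0.0733), Tubb2a 0.27, Tubb3 0.25, Tuba1b 0.18, Tubb4a -0.02, Tubb2b -0.04 and Tuba4a -0.49 (adjusted p = 0.152). With the replicate block Tuba4a was lower at 48 h (-0.63, adjusted p = 0.0142) and Tubb5 higher (0.37, adjusted p = 0.0123). Without HET replicate 3 of 48 h, 6 members rose, the added ones being Tuba1b (0.33), Tubb3 (0.35) and Tubb5 (0.36), while Tubb2b had -0.13 and Tubb4a 0.09. The count was 0 without HET replicate 2 of 12 h, without HET replicate 1 of 48 h and without HET replicate 2 of 48 h, and 0 when only the samples compared were fitted. The share of all genes called in these fits is not given, so the counts of 6 and 0 are not set against all genes.

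From 12 to 24 h in HET, 3 isotypes rose, Tuba1c (log2 fold change 1.30, adjusted p = 0.00106), Tubb2a (0.55, adjusted p = 0.00695) and Tubb6 (1.39, adjusted p = 0.00406), and 0 fell in limma. Among all genes, 13.1% were higher and 5.76% lower. Of the 2 members that were lower at an unadjusted p under 0.05 (11.0% of all genes), Tuba4a had -0.52 (adjusted p = 0.120, and 0.0270 with the replicate block) and Tuba1b -0.30. From 24 to 48 h in HET, 0 members passed in limma in either direction, where 1.42% of all genes were higher and 1.08% lower, and 5 had an unadjusted p under 0.05 (19.1% of all genes). Among those 5, Tuba1a (0.40), Tuba1b (0.47) and Tubb5 (0.24) were higher and Tuba1c (-0.48) and Tubb2a (-0.28) lower. Without HET replicate 3 of 48 h, 2 members passed as higher, Tuba1a (0.57, adjusted p = 0.0129) and Tuba1b (0.63, adjusted p = 0.00208). The share of all genes called in that fit is not given. Tubb6, at -0.15 with all cultures, turned to 0.20 without that culture.

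**Figure D2:**
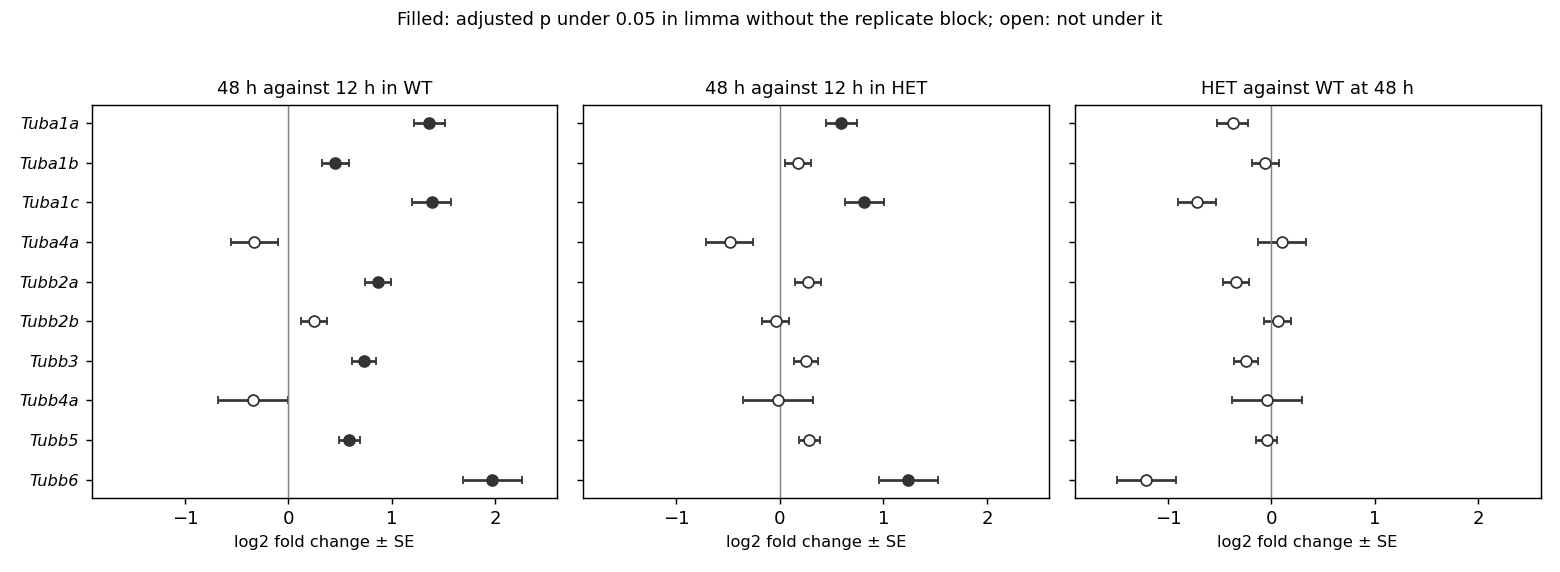
Log2 fold change ± SE of the 10 tubulin isotypes (horizontal axes) for 48 h against 12 h in WT, 48 h against 12 h in HET and HET against WT at 48 h. Filled points have an adjusted p under 0.05 in limma without the replicate block, which holds for 7 genes in WT, 3 in HET and 0 between genotypes, and Tubb6 has the outermost value in each panel.

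The design asks whether lower Dynlrb1 alters expression as the neurons grow. HET and WT cultures were compared at each time. At 12 h, 0 of the 10 isotypes passed in limma (0.00581% of all genes), and 3 had an unadjusted p under 0.05 (8.41% of all genes): Tuba1a (log2 fold change HET against WT 0.40, adjusted p = 0.577), Tubb2b (0.35) and Tubb5 (0.26), all higher in HET. HET cultures lay above WT cultures without overlap for 4 members, these 3 and Tubb3 (0.24), as they did for 7.07% of all genes. At 24 h, 0 passed (0.00581% of all genes), 0 had an unadjusted p under 0.05 (1.15%) and 0 were without overlap (5.60% in either direction), with log2 fold changes from -0.21 (Tubb4a) to 0.30 (Tuba1c). The authors' deposited table had no member under 0.05 at 12 or 24 h, where its lowest adjusted p among members was 0.489 and 1.0.

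At 48 h, the HET cultures all lay below the WT cultures for 5 isotypes: Tuba1a, Tuba1c, Tubb2a, Tubb3 and Tubb6. That held for 14.4% of all genes. In limma 0 of the 10 passed (0% of all genes), and 4 had an unadjusted p under 0.05 (22.0% of all genes), Tubb6, Tuba1c, Tubb2a and Tuba1a. Tubb6 had 7863, 10615 and 5016 normalized counts in WT and 4312, 3965 and 1974 in HET, and its log2 fold change was -1.21 (SE 0.29, adjusted p = 0.0522). Tuba1c had 2428, 3565 and 1984 in WT and 1648, 1671 and 1392 in HET, and its log2 fold change was -0.72 (SE 0.19, adjusted p = 0.0590). Same-numbered cultures of the 2 genotypes deviated together at 48 h, and with the replicate number as a block over all 18 cultures 2 of the 10 passed and were lower in HET, where 6.07% of all genes were lower: Tubb6 (adjusted p = 0.00322) and Tuba1c (adjusted p = 0.0178). With the block among the 48 h cultures only, their adjusted p was 0.00330 and 0.0128. In the authors' deposited table the same comparison had an adjusted p of 8.65e-04 for Tubb6 (log2 fold change -1.20) and 0.00413 for Tuba1c (log2 fold change -0.76).

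Whether these 2 differences passed turned on single cultures, while both kept their direction whichever culture was left out. Both passed in limma without WT replicate 3 of 48 h, with an adjusted p of 0.0228 for Tubb6 and 0.0241 for Tuba1c. Tubb6 also passed without HET replicate 1 (0.0387) or HET replicate 2 (0.0402) of 48 h. Without HET replicate 3 of 48 h the log2 fold change was -0.86 for Tubb6 and -0.64 for Tuba1c, both with an adjusted p of 0.251, and without WT replicate 2 of 48 h it was -0.96 and -0.49. Over the 15 alternative settings the adjusted p ran from 0.00322 to 0.394 for Tubb6 and from 0.0128 to 0.398 for Tuba1c. It was under 0.05 in 6 of them for Tubb6 and in 3 for Tuba1c. Marker lists were also set beside these 2 isotypes at 48 h. The summed FPKM of the macrophage list at 48 h was 40.9, 81.5 and 44.5 in WT and 24.1, 36.8 and 23.9 in HET, without overlap. WT replicate 2, the highest culture for Tubb6 and Tuba1c, had the 81.5. HET replicates 1 and 3 had near-equal sums, 24.1 and 23.9, but 4312 and 1974 normalized counts of Tubb6. Among the 5 measured macrophage genes, 0 passed between genotypes at 48 h without the block. Their median log2 fold change was -0.19, against -0.03 over all genes. With the block 1 of them was lower in HET, where 6.07% of all genes were lower. Cd68, a lysosomal protein abundant in macrophages and named after its value was seen, had -1.04 (SE 0.30, adjusted p = 0.0711). For the genes of dividing cells the summed FPKM of all 6 was 13.1 to 25.3 in WT and 3.88 to 18.3 in HET at 48 h, against 2.27 to 3.92 in the 12 cultures of 12 and 24 h. All 6 were higher at 48 than at 12 h in WT (30.0% of all genes) and 5 in HET (10.6% of all genes). Between genotypes at 48 h their median log2 fold change was -1.20. Of the 6, 0 passed without the block, and with it 3 were lower in HET (6.07% of all genes). HET replicate 3, the lowest of its group for Tubb6 and Tuba1c, also had the 3.88. The 25.3 was that of WT replicate 1 and not of WT replicate 2. Fibroblast markers at 48 h summed to 107 to 154 in WT and 87.4 to 155 in HET. The sums of the neuronal list (5889 to 6410 in WT, 6630 to 7057 in HET) and of the blood cell list (3.68 to 4.91 and 5.68 to 65.9) were higher in HET without overlap, and the 65.9 was that of replicate 3. The neuronal genes did not move as 1 group. Their median log2 fold change was 0.08, and Isl1 (-0.61), Elavl4 (-0.51) and Map2 (-0.51) were below 0. Of the 12, 0 passed without the block, and with it 3 were lower and 0 higher in HET. The Schwann cell, satellite glia and endothelial lists overlapped. The part of these cell types in the levels of Tubb6 and Tuba1c was not tested.

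The remaining members at 48 h had log2 fold changes of -0.37 for Tuba1a (SE 0.15, adjusted p = 0.161), -0.35 for Tubb2a (SE 0.13, adjusted p = 0.123) and -0.24 for Tubb3 (SE 0.12, adjusted p = 0.228), and from -0.06 to 0.10 for Tuba1b, Tubb4a, Tubb5, Tubb2b and Tuba4a. Tuba1a had 104461, 115267 and 100604 normalized counts in WT and 97794, 87710 and 64933 in HET. Tubb3 had 98914, 109649 and 108170 in WT and 96103, 95295 and 77508 in HET. Without HET replicate 3 the log2 fold changes were -0.20 for Tuba1a, -0.37 for Tubb2a, -0.14 for Tubb3 and 0.07 for Tuba4a, and those of Tuba1b (0.10), Tubb2b (-0.02), Tubb4a (0.07) and Tubb5 (0.03) turned their direction. For Tuba1a and Tubb3, HET lay above WT at 12 h and below it at 48 h, each time without overlap.

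Averaged over the 3 times, 0 of the 10 isotypes differed between genotypes in limma (0.0174% of all genes), and 1 had an unadjusted p under 0.05 (13.5% of all genes), Tubb6 (log2 fold change -0.47, SE 0.16, adjusted p = 0.311; the blocked fit gave 0.0402). The other 9 had averaged log2 fold changes from -0.20 (Tubb4a) to 0.17 (Tuba4a). The difference between genotypes in the change from 12 to 48 h was itself tested, and 0 of the 10 passed (0% of all genes). At an unadjusted p under 0.05 there were 4 (8.92% of all genes), each with a smaller log2 difference in HET than in WT: Tuba1a (-0.77, SE 0.21, adjusted p = 0.548), Tubb2a (-0.60), Tuba1c (-0.57) and Tubb3 (-0.48). Without HET replicate 3 of 48 h the values were -0.60, -0.62, -0.48 and -0.38, and that of Tubb6 went from -0.73 to -0.37. The larger number of isotypes past the threshold in WT than in HET was therefore not shown to be a difference between genotypes.

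Isotype shares describe each gene as a percent of the summed FPKM of the 4 alpha members or of the 6 beta members of the same culture. A share does not depend on how a culture was scaled. Tuba1a made up most of the alpha sum, and its share grew with time: 82.4, 84.4 and 85.6% in WT at 12 h, 87.7, 88.1 and 89.3% at 24 h, and 90.6, 91.5 and 91.6% at 48 h. In HET it was 86.2, 83.7 and 87.5% at 12 h, 89.0, 86.7 and 89.7% at 24 h, and 90.2, 90.5 and 88.9% at 48 h. The values at 48 h lay above those at 12 h without overlap, in WT as in HET. Averaged over genotypes, the share was 5.58 percentage points higher at 48 than at 12 h (two-sided exact permutation test within genotypes, p = 0.00500, the smallest that its 400 arrangements can give).

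The gain of Tuba1a was matched by smaller shares of Tuba1b and Tuba4a. Shares of a culture are parts of the same sum, so a larger share of Tuba1a means a smaller share of the rest. The tests of these shares are therefore not separate results. Tuba1b went from 8.90 ± 0.488% (SD, n = 3) at 12 h to 5.14 ± 0.376% at 48 h in WT and from 8.05 ± 0.857% to 6.29 ± 0.112% in HET, an averaged difference of -2.76 points (exact permutation p = 0.00500). Its level rose over the same interval in WT, by 0.45 on the log2 scale against 1.36 for Tuba1a. Tuba4a went from 5.37 ± 1.18% to 1.8 ± 0.430% in WT and from 5.0 ± 1.22% to 2.48 ± 0.625% in HET, a difference of -3.04 points (exact permutation p = 0.00500). Tuba1c was highest at 24 h, with 2.07, 2.44 and 2.21% in WT and 2.52, 2.48 and 2.48% in HET, and its share at 48 h differed from that at 12 h by 0.22 points (exact permutation p = 0.125).

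**Figure D3:**
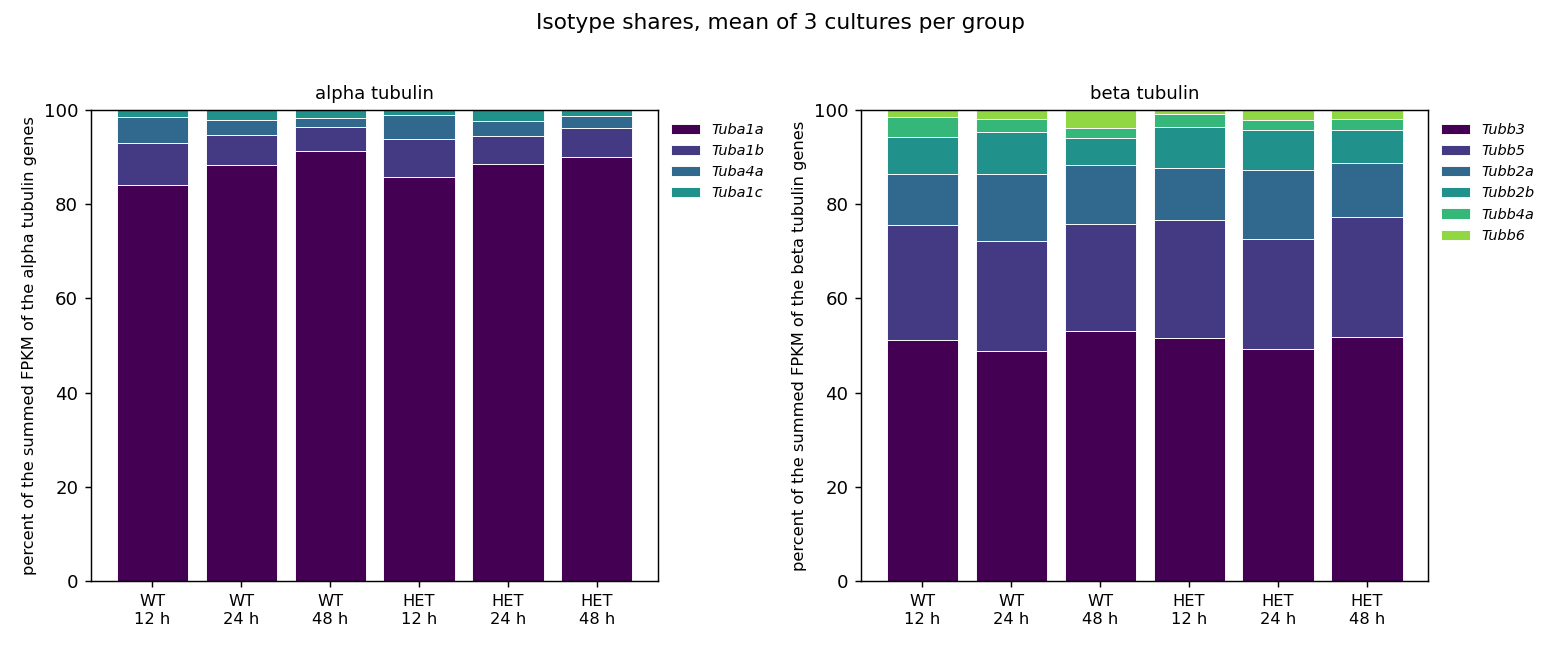
Stacked bars of the mean share of each isotype (vertical axes, percent of the summed FPKM of the alpha genes, left, or of the beta genes, right) in the 6 groups of genotype and time, 3 cultures each. Tuba1a takes 84.1 to 91.2% of the alpha sum, and Tubb3 and Tubb5 together take most of the beta sum in every group.

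Among the beta genes the 2 leading isotypes kept their shares within a few points. Tubb3 held from 48.9 ± 1.37% to 53.0 ± 1.39% of the beta sum over the 6 group means, and Tubb5 from 22.8 ± 0.719% to 25.5 ± 0.592%. For neither did 48 and 12 h differ in the exact permutation test (p = 0.350 and 0.565). Tubb2a, like Tuba1c, was highest at 24 h, with 14.3, 14.5 and 13.9% in WT and 15.5, 13.9 and 14.5% in HET, against 9.74 to 11.7% at 12 h. Tubb2b was lower at 48 than at 12 h, with a difference of -1.77 points (exact permutation p = 0.0200), and so was Tubb4a, with -1.27 (exact permutation p = 0.0400), which did not pass in 7 of the 12 tests that left out 1 culture.

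Tubb6 was the beta isotype whose share grew. In WT it was 1.87, 1.57 and 1.20% at 12 h, 2.06, 2.05 and 1.81% at 24 h, and 4.11, 4.98 and 2.5% at 48 h. In HET it was 1.15, 0.733 and 0.954% at 12 h, 2.47, 2.07 and 2.12% at 24 h, and 2.36, 2.16 and 1.25% at 48 h. WT cultures had the larger share at 12 h and at 48 h, and HET cultures had it at 24 h, each time without overlap. The averaged difference between 48 and 12 h was 1.65 points (exact permutation p = 0.00500). Leaving out any 1 of the 12 cultures of these times left the exact p of the Tuba1a, Tuba1b, Tuba4a and Tubb6 shares under 0.05.

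Between genotypes, Tubb6 had the only share among the 10 with an exact permutation p under 0.05: HET minus WT within times was -0.76 points (p = 0.0393 over 8000 arrangements, two-sided). With genotypes exchanged only within same-numbered pairs at each time the exact p was 0.0625, and it was above 0.05 in 10 of the 18 tests that left out 1 culture, from 0.0503 to 0.112 in those. The other 9 shares had differences from -0.55 points (Tubb4a) to 1.04 points (Tubb5), with exact p from 0.106 to 0.95. At 48 h alone, the Tubb5 share was 25.1, 26.2 and 25.3% in HET and 23.1, 22.0 and 23.4% in WT, without overlap. The Tuba1b share there was 6.36, 6.16 and 6.35% in HET and 5.46, 4.73 and 5.24% in WT. A single time allows no exact p below 0.1. The 22 exact tests over genotype and time were not adjusted for their number.

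**Figure D4:**
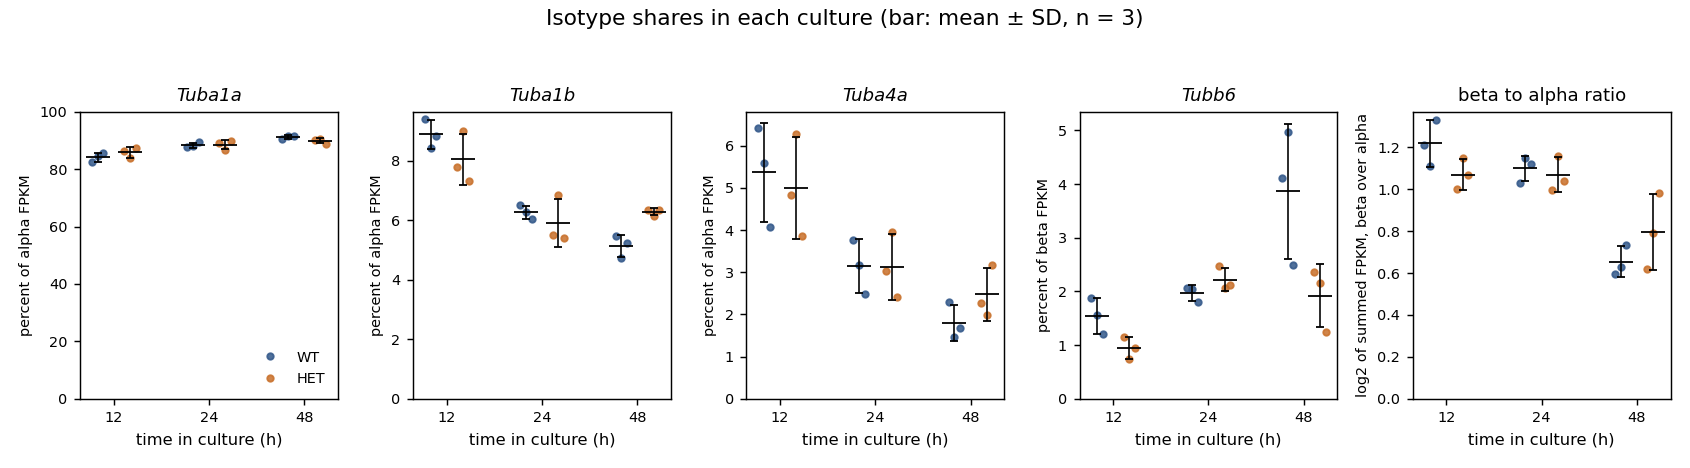
Share of Tuba1a, Tuba1b, Tuba4a and Tubb6 (percent of the summed alpha or beta FPKM) and log2 ratio of the summed beta to the summed alpha FPKM (last panel) against time in culture (h). Points are single cultures, blue for WT and orange for HET, with mean ± SD of 3 as black bars. Tuba1b and Tuba4a are lower and Tuba1a is higher at 48 than at 12 h, and the ratio is lowest at 48 h in both genotypes. The HET mean of Tuba1b is 5.91% at 24 h and 6.29% at 48 h.

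The summed beta FPKM exceeded the summed alpha FPKM in every culture, and by less at 48 h. In WT the ratio of the 2 sums had means of 2.33 ± 0.182 (12 h), 2.14 ± 0.0883 (24 h) and 1.57 ± 0.0813 (48 h). In HET it was 2.11 ± 0.111, 2.10 ± 0.126 and 1.75 ± 0.219. On the log2 scale the values at 48 h were 0.60, 0.63 and 0.74 in WT and 0.62, 0.79 and 0.98 in HET, below the 1.11 to 1.33 and 1.0 to 1.15 of 12 h without overlap. The sums hold only the named members, so Tubb4b, a widely expressed beta tubulin outside them, is missing from the beta sum. How reads that fit several genes were counted is not known, and the 2 sums differ in such stretches. Windows of 50 bases found in another gene made up 72.9% for Tuba1a, against 0.0% for Tubb3 and 0.1% for Tubb5. The size of the ratio is therefore uncertain.

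Of the 10 other tubulin genes looked for, 7 were measured and 5 had a mean of at least 1 FPKM. From 12 to 48 h in WT, 3 of the 7 rose and 1 fell, where 30.0% of all genes were higher and 17.1% lower. Tubb4b had 198 FPKM and was 7.47 ± 0.939% of all measured beta tubulin FPKM in WT at 12 h and 8.41 ± 0.553% at 48 h. It rose by 0.87 on the log2 scale (adjusted p = 8.86e-05), as did Tubg1 (1.11, adjusted p = 8.86e-05), the gamma tubulin that starts new microtubules, and Tubd1 (1.43, adjusted p = 4.65e-05), the delta tubulin of centrioles. Tubg2 (16.4 FPKM) had 0.10 and Tuba8 (1.27 FPKM) 0.45, neither past the threshold. The gene that fell was Tubb1 (-1.72, adjusted p = 0.0427), the beta tubulin of platelets, which had 0.143 FPKM. In HET, Tubg1 (0.54) and Tubd1 (0.82) rose and Tubb4b had 0.34 (adjusted p = 0.0826).

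Genes that handle tubulin were followed in 3 lists. From 12 to 48 h, 30.0% of all genes were higher and 17.1% lower in WT, and 10.6% and 3.62% in HET. Of 21 genes for tubulin folding (chaperonin and prefoldin subunits and tubulin cofactors), 12 rose and 0 fell from 12 to 48 h in WT, with a median log2 fold change of 0.29 against 0.11 over all genes. The largest were Tbcc (0.58), a tubulin cofactor, the chaperonin subunits Cct4 (0.56) and Cct8 (0.46), and the prefoldin subunit Pfdn4 (0.55). In HET, 0 of the 21 passed in either direction.

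Of 21 measured genes for tubulin modification (23 listed), 6 rose and 3 fell in WT, with a median of 0.04 against 0.11 over all genes. These counts were near the shares of all genes, 30.0% higher and 17.1% lower. Agbl4, an enzyme that trims glutamate from the tails, fell (-1.08), and its relatives Agbl5 (0.81) and Agbl3 (0.47) rose. Ttll12, a member of the tubulin ligase family, rose by 0.94. In HET 3 rose and 0 fell. Of 18 genes for microtubule nucleation, 9 rose and 0 fell in WT (median 0.31), led by Haus5 (1.17), an augmin subunit, Tubg1, Nedd1 (0.85) and Tubgcp4 (0.64), and in HET 4 rose and 0 fell. Between genotypes averaged over times, 0 genes of each list passed in limma. At 48 h 0 passed without the block and, with it, 1 modification gene was higher and 1 lower, and 2 nucleation genes were lower in HET. With the block, 6.07% of all genes were lower in HET.

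**Figure D5:**
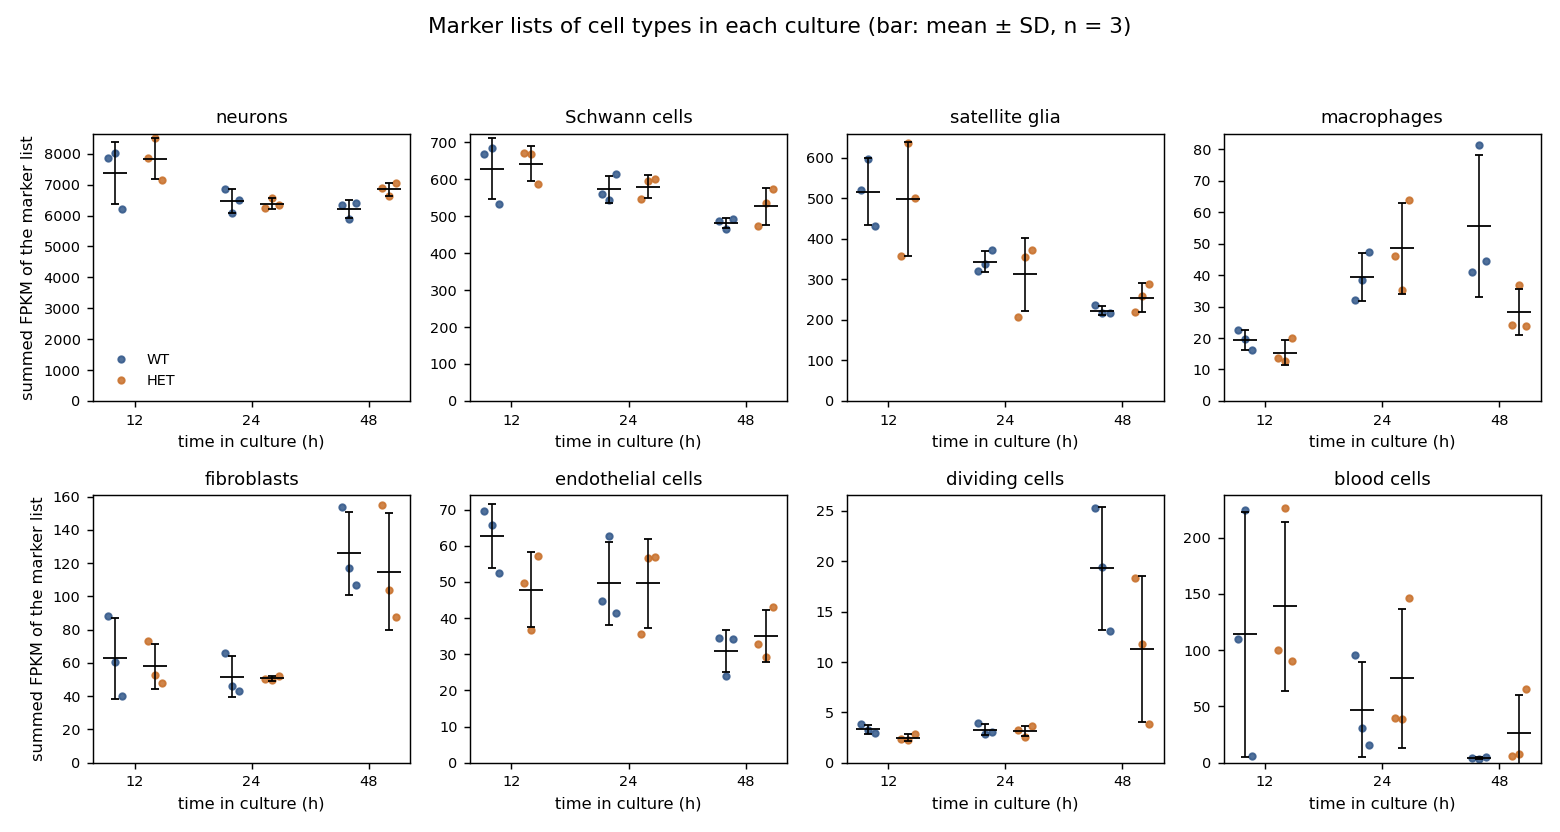
Summed FPKM of marker lists for neurons, Schwann cells, satellite glia, macrophages, fibroblasts, endothelial cells, dividing cells and blood cells (vertical axes, starting at 0) against time in culture (h). Points are single cultures, blue for WT and orange for HET, with mean ± SD of 3 as black bars. Fibroblast and dividing cell lists are highest at 48 h, where HET replicate 3 has 3.88 for dividing cells, and the satellite glia, endothelial and blood cell lists have their lowest means at 48 h. The SD bar of the HET blood cell list at 48 h is cut off at 0.

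The marker lists moved with time as well, beside the isotypes above. From 12 to 48 h in WT, 30.0% of all genes were higher and 17.1% lower. In WT the neuronal list had means of 7368 ± 1000 FPKM at 12 h and 6218 ± 286 at 48 h, and 2 of its 12 genes rose and 5 fell. The satellite glia list went from 516 ± 82.7 to 223 ± 11 and the Schwann cell list from 628 ± 83.0 to 481 ± 13.2. The fibroblast list went from 62.8 ± 24.2 to 126 ± 25.0, and 4 of its 6 genes rose. The list of dividing cells went from 3.34 ± 0.451 to 19.3 ± 6.09 and the macrophage list from 19.4 ± 3.06 to 55.6 ± 22.5, with 2 of its 5 measured genes higher. The endothelial list went from 62.7 ± 8.89 to 30.9 ± 5.90, with 3 of 5 genes lower, and the blood cell list from 114 ± 109 to 4.41 ± 0.644, with all 4 measured genes lower. Whether a shift in cell types moved the level of Tuba1a or Tubb3 was not tested.

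The genes most like Tubb3 and Tuba1a were ranked by Pearson correlation of log2 values over the 18 samples among 12477 genes with a mean of at least 100 normalized counts. For Tubb3 they were Pgk1 (0.972), a glycolytic enzyme, Dynll1 (0.969), a light chain of dynein, and Tuba1a (0.967). For Tuba1a they were Pgk1 (0.977), Tubg1 (0.973) and Gm6682 (0.97). The correlations run over all 18 cultures and do not separate time, genotype and deviations of single cultures. For Tuba1a, 72.9% of the windows of 50 bases also occurred in another gene. Whether reads that fit several genes raised its correlations was not tested.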

How the data were processed

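RNA from 18 cultures of mouse DRG neurons was sequenced, and the authors deposited 1 table of 17198 genes (16529 with an Ensembl ID). Per the submitters' processing notes, CASAVA 1.8.2, edgeR and build mm10 were used. The aligner, the read counting and the annotation are not given in the sources used here. The file headers name the values used here normalized counts. These hold no 0 and have column totals of 41509705 to 41509874, and the plain adjusted columns hold no whole value. Depth per sample is therefore unknown, and no counting interval was computed. The deposited plain adjusted signal columns spanned 15 of 17 possible dimensions, which means that 2 sample directions carry no variance, and limma counts more residual degrees of freedom than remain. The authors' FPKM values, log2 fold changes and p-values (adjusted) were deposited in the same table, and 24 per-sample fold change columns were not used.

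Values were analysed as log2(normalized count + 1), which shrinks the changes of genes with low values. The 6 group means were estimated in 1 fit of 18 samples with limma 3.58.1 in R 4.3.3 (eBayes with a trend, 12 residual and 4.97 prior degrees of freedom), with 11 comparisons, Benjamini-Hochberg adjustment over 17198 genes and a threshold of 0.05. A minimum mean of 1 removed 0 genes. The scripts were tested on simulated data. Shares and coding tails were computed in Python 3.11.15 with Biopython 1.88, with 22 exact permutation tests within times or genotypes and 55 within single comparisons. Coding tails of some members are not reported here. Groups came from the sample titles.

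Replicate numbers come from the titles. Deviations of same-numbered WT and HET cultures from their group means correlated at 0.21 to 0.46 in the 3 pairs at 48 h and at -0.21 to 0.26 at 12 and 24 h (4 of 6 over 0.1). The reported fit has no block. The block alternative had a term for the replicate number over all 18 cultures (9 residual degrees of freedom), and 1 chosen after seeing the data had it among the 48 h cultures only (10). The replicate numbers at 48 h are not all those of 12 and 24 h. Comparisons of 48 h with an earlier time under the block over all 18 cultures are therefore partly confounded with the replicate number. All 10 members are named. Of the other tubulin genes, those with a mean of at least 1 FPKM are named, and Tubb1 was added after its value was seen. Of the 3 pathway lists, the named genes are those that passed from 12 to 48 h in WT with the most extreme log2 fold changes, up to 4 per list. Cd68 was named after its value was seen. The members and lists were chosen with earlier results of these data known. Alternatives were the replicate block, the pseudocount, the filter, the scaling, the samples fitted, the removed directions, the unit and denominator of shares, and leaving out each culture.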

Additional observations from a re-analysis of the deposited data

Results flagged for a closer look

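Tuba1c and Tubb6 had effects of opposite sign without overlap between the samples in 2 groups, and these differences between groups were not tested. The log2 level of Tuba1c from 24 to 48 h was higher by 0.54 in WT and changed by -0.48 in HET, a difference of -1.03. The HET minus WT difference in the Tuba1c share of alpha tubulin was -0.49 percentage points at 12 h and 0.25 at 24 h, a difference of 0.74. The HET minus WT difference in the Tubb6 share of beta tubulin was -0.60 points at 12 h, 0.25 at 24 h and -1.94 at 48 h. It differed by 0.85 points between 12 and 24 h and by -2.19 points between 24 and 48 h.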

How the results depend on the processing

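Of 1018 alternative values, 899 kept the direction and the side of the threshold of the reported one or, for a count of isotypes, stayed within 1.5 times of it. The filter removed 0 genes, so the fit without a filter repeats the reported fit. The 899 therefore include values that could not change and do not measure how firm the results are. The count of 7 isotypes that rose from 12 to 48 h in WT was 7 in each of the 6 fits without 1 culture. Leaving out 1 culture moved the number past the threshold to between 0 and 2 for HET against WT at 48 h, 0 and 2 for WT from 12 to 24 h, 0 and 2 for HET from 24 to 48 h, and 0 and 6 for HET from 12 to 48 h. With the replicate block the counts were 2 (genotypes at 48 h), 1 (average over times, Tubb6, adjusted p = 0.0402), 4 (WT, 12 to 24 h), 9 (WT, 12 to 48 h, with Tuba4a lower), 4 (HET, 12 to 24 h, with Tuba4a lower), 3 (HET, 24 to 48 h) and 5 (HET, 12 to 48 h, with Tuba4a lower). With the block among the 48 h cultures only, an alternative chosen after seeing the data, they were 2 (genotypes at 48 h) and 1 (HET, 24 to 48 h). With quantile normalization they were 1 (genotypes at 48 h) and 1 (HET, 24 to 48 h), with the removed directions as covariates 1 (HET, 24 to 48 h), and with only the samples compared 0 (HET, 12 to 48 h). With the block, 6 folding genes rose and 5 modification genes rose and 2 fell from 12 to 48 h in HET, against 0, 3 and 0 without it. For HET against WT at 48 h, 6.07% of all genes were lower with the replicate block. With the block among the 48 h cultures only, 945 of 17198 genes were lower. For the other alternatives the share of all genes called is not given, so their counts are not set against all genes.

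Directions that turned belonged to differences near 0. Leaving out 1 culture, the log2 fold change between genotypes at 48 h ran from -0.189 to 0.097 for Tuba1b, -0.043 to 0.159 for Tubb2b, -0.334 to 0.186 for Tubb4a and -0.105 to 0.031 for Tubb5. The change from 12 to 48 h in HET ran from -0.132 to 0.057 for Tubb2b, which was 0.008 with quantile normalization, and from -0.312 to 0.218 for Tubb4a. That of Tubb6 from 24 to 48 h in HET went from -0.152 to 0.204 without HET replicate 3 of 48 h. The share difference between genotypes ran from -0.144 to 0.489 points for Tuba1a, -0.180 to 0.097 for Tuba1b, -0.114 to 0.288 for Tuba4a, -0.433 to 0.026 for Tubb2a and -0.368 to 0.281 for Tubb3, and the log2 ratio of beta to alpha from -0.041 to 0.019. The Tubb5 share at 48 minus 12 h ran from -0.832 to 0.022 points. The cause of these changes was not tested. Depth per sample is unknown, so precision rests on 3 cultures per group.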
